A study of Mus musculus with 29 samples.

Results

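The 4 RNA-seq libraries of young wild-type hematopoietic stem cells (YWT) were described as a baseline: which genes these cells expressed, at what level, and how far the replicates lay apart. The libraries were taken by their labels (genotype WT, treatment young) and are 4 of the 19 RNA-seq libraries and 4 of the 29 samples analysed here, the others being from old wild-type or Gadd45b knockout mice or being methylation libraries. The cells were sorted from mouse bone marrow as LSK CD34-Flk2-CD150+ (lineage-negative cells with surface c-Kit and Sca-1 that lack CD34 and Flt3 and carry CD150), and libraries were made with the SMART-Seq v4 low-input kit. The labels give neither the age in weeks nor whether a library came from 1 mouse or from a pool, so the spread below may be technical in part. No library was compared with another group, and no difference between conditions was tested, since there is 1 group.

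Hematopoietic stem cells (HSCs) sit at the top of the blood system, where most of them are quiescent and a few divide to renew themselves or to give rise to progenitors of every blood lineage. The surface proteins of the gate mark this population: Kit is the receptor for stem cell factor, Ly6a encodes Sca-1 and Slamf1 encodes CD150, whereas Cd34 and Flt3 appear as cells become multipotent progenitors. A network of transcription factors, among them Gata2, Runx1, Tal1, Lmo2, Hlf, Meis1 and Mecom, keeps their identity.

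The libraries held 42603399 to 62463034 counts, and each pair of them correlated at a Spearman rho of 0.888 to 0.905 across genes on the log2(CPM + 1) scale (CPM, counts scaled to a common library total). Levels are given below as RPKM, that is, CPM per kilobase of exon, scaled between libraries by TMM factors (trimmed mean of M values, 0.748 to 1.15). Sex-linked reads went against the labels, which call all 4 libraries female. The authors state that their data include mice of both sexes. Xist, the RNA that silences one X chromosome in females, had 14520 counts in YWT1 and 9359 in YWT2, but 87 in YWT3 and 40 in YWT4. The Y-linked gene Ddx3y had 0 counts in YWT1 and YWT2, 4251 in YWT3 and 2197 in YWT4, and the Y-linked Eif2s3y had 0, 0, 3951 and 2399. YWT3 and YWT4 thus held Y-linked reads and almost no Xist, so sex differs within the group and cannot be told apart from any other difference between YWT1 or YWT2 and YWT3 or YWT4.

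Besides sex, 2 libraries stood apart. In YWT2, immunoglobulin genes took 28.6% of the counts, against 1.62% in YWT1, 2.83% in YWT3 and 3.25% in YWT4. The 100 most abundant genes took 38.9% of the counts in YWT2 and 14.2% to 14.7% in the other 3 libraries, and without immunoglobulin genes these shares were 15.7% and 12.7% to 13.6%. In YWT4, the smallest library, more genes were counted: after thinning every library to the same total, 42954 genes had at least 1 count in YWT4 and 35294 to 38204 had one in the others. Equal totals left fewer counts for other genes in YWT2, where 28.6% were on immunoglobulin genes. Olfactory receptor genes, which blood cells are not known to use, summed to 415 CPM in YWT4 and to 140 CPM in YWT1, 144 CPM in YWT2 and 156 CPM in YWT3. Vomeronasal receptor genes did likewise, with 189 CPM in YWT4 and 58.2 to 68.2 CPM elsewhere. Mitochondrial genes took 0.535% to 0.806% of the counts.

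**Figure D1:**
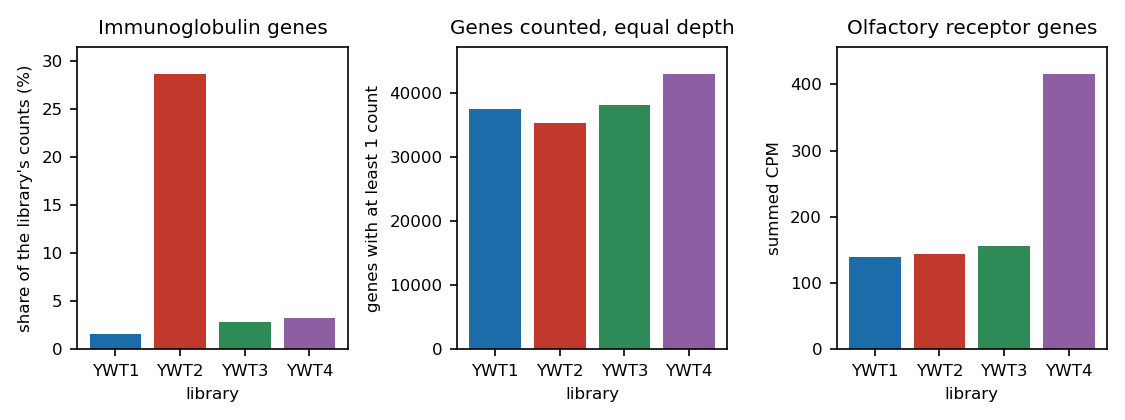
Bars show, for each of the 4 libraries, the percent of counts on immunoglobulin genes, the number of genes with at least 1 count after thinning to the same total, and the summed CPM of olfactory receptor genes. YWT2 stands out at 28.6% in the left panel, and YWT4 at 42954 genes and 415 CPM in the others.

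A gene was called expressed where its level was at least 1 RPKM in all 4 libraries. By this rule 10538 of 21740 protein-coding genes (48.5%) were expressed, and 1075 further protein-coding genes reached 1 RPKM in some libraries but not in all. The count per single library was narrow, from 10923 protein-coding genes in YWT1 to 11138 in YWT4. At the other end, 696 protein-coding genes had no count in any library. Expressed protein-coding genes had a median level of 9.69 RPKM, with 4.50 and 21.4 RPKM at the quartiles and 223 RPKM at the 99th percentile. Only 367 of them averaged 100 RPKM or more and 7 averaged 1000 or more, and 852 genes held 50% of the summed level of all protein-coding genes.

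Immunoglobulin genes are classed apart from protein-coding genes in the annotation used. Igkc stood at 7805, 212978, 14630 and 14505 RPKM in YWT1 to YWT4 and Ighm at 3174, 80651, 5042 and 5518. Both were above every protein-coding gene named next, in each library. Among the most abundant protein-coding transcripts was B2m, the invariant chain of MHC class I. It stood at 2245 RPKM in YWT1, 3625 in YWT2, 2381 in YWT3 and 2184 in YWT4, and was highest in YWT2. Below it came Eef1a1, the elongation factor that brings transfer RNAs to the ribosome, at 1313 ± 139 RPKM (SD, n = 4), Rpl36 at 1176 ± 169, H2-D1 at 1073 ± 159, Rpl32 at 1058 ± 109, the ferritin light chain Ftl1 at 1028 ± 193 and Actb at 992 ± 133. Jchain, which joins secreted antibody subunits, had the highest mean of all protein-coding genes through 1 library only, and is described with the other genes of that library. Gm10800, at 934 RPKM, is a predicted gene whose reads may come from repeated sequence, and its level is uncertain. Of the 91 genes of the ribosomal protein family, 86 were expressed, with a median of 191 RPKM over all 91.

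The sorted phenotype was seen at the RNA level for c-Kit and CD150. Kit stood at 104 RPKM in YWT1, 110 in YWT2, 127 in YWT3 and 108 in YWT4, a CV (SD over mean) of 0.0910, and Slamf1 at 8.49, 7.94, 8.37 and 7.67 RPKM, a CV of 0.0467. The 4 libraries were close to one another for both genes. Ly6a was not: it stood at 104 RPKM in YWT1, 431 in YWT2, 128 in YWT3 and 143 in YWT4, so that YWT2 lay far above the others, and its mean was 202 RPKM with YWT2 and 138 RPKM without it. Of the 8 genes of the negative gate, 6 were below 1 RPKM on average, namely Il7r, Itgam, Cd3e, Cd3d, Cd3g and Ly6g. The other 2 had transcripts above that level. Cd34 stood at 15.4 RPKM in YWT1, 15.4 in YWT2, 25.1 in YWT3 and 27.8 in YWT4, and Flt3 at 1.74, 2.07, 3.51 and 4.12 RPKM. Both genes were higher in YWT3 and YWT4 than in YWT1 and YWT2, an order that 17.0% of all expressed protein-coding genes had.

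The promoters of the 2 stable gate genes differ in base composition. They are shown because both genes define the gate and are transcribed at levels more than 10 times apart. The bases are the 120 before the RefSeq start (GRCm38.p6), 5′ to 3′ on the gene's strand, with CpG dinucleotides in capitals. Kit lies on the plus strand (chr5:75574867-75574986) and Slamf1 on the plus strand (chr1:171767012-171767131), and Ly6a had no entry.
Kit: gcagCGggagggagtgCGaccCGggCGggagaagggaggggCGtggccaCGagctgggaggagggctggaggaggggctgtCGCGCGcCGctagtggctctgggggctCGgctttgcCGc
Slamf1: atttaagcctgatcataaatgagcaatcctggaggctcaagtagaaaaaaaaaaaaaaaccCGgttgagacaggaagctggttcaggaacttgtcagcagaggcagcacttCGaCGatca
Over the 250 bases before the start, Kit had 70.8% G or C and 17 CpG, and Slamf1 had 47.2% and 3 CpG.

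Genes used to tell long-term HSCs from progenitors were expressed almost throughout: 26 of 28 passed, with a median of 24.3 RPKM over the 28 and a median CV of 0.167. Procr, which encodes the endothelial protein C receptor, stood at 35.5, 42.6, 62.1 and 60.5 RPKM, and Ifitm1 at 341, 351, 426 and 521 RPKM, so both were higher in YWT3 and YWT4. The same order held for 12 of the 26 expressed genes of the list, against 17.0% of all expressed protein-coding genes. Other members were Pdzk1ip1 at 131 ± 24.6 RPKM, Tgm2 at 91.8 ± 12.4, Cd9 at 84.5 ± 7.44, Esam at 56.1 ± 9.43, Itga2b at 51.5 ± 8.57, Tek at 14.0 ± 1.20, Fgd5 at 10.7 ± 2.01 and Hoxb5 at 3.83 ± 0.524 (SD, n = 4 in each). Cd48, a protein of progenitors and mature cells that HSCs lack on their surface, stood at 14.2 RPKM in YWT1, 29.7 in YWT2, 13.0 in YWT3 and 7.72 in YWT4, with the highest value in the library rich in immunoglobulin. Gprc5c (mean 0.985 RPKM) and Thy1 (0.243 RPKM) were not expressed by the rule.

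The transcription factors of the stem cell network were even in their sum, which ranged from 1506 RPKM in YWT2 to 1639 in YWT3. By the rule 29 of 30 were expressed, with a median of 33.9 RPKM, and the exception was Cebpa, a driver of the granulocyte and monocyte fates (0.832 RPKM). Lmo2, a bridging protein of the network, led at 352 RPKM in YWT1, 400 in YWT2, 390 in YWT3 and 347 in YWT4, ahead of Nfe2 at 177 ± 13.3, Myc at 136 ± 17.8 and Mycn at 93.0 ± 11.1. Gata2 varied least, at 84.6, 81.9, 81.3 and 83.7 RPKM (CV 0.0184), the lowest CV of the 29 expressed genes of the list. Meis1, a partner of Hox proteins, stood at 34.9, 35.4, 48.6 and 42.1 RPKM, and Hlf, a marker of the most primitive cells, at 34.4, 41.2, 48.6 and 36.4. Mecom stood at 12.6 ± 1.46 RPKM, Tal1 at 11.9 ± 2.01, Erg at 10.4 ± 1.37 and Runx1 at 9.50 ± 1.62. The 4 widest spreads were those of Egr1, Gata1, Gfi1 and Gfi1b. Gata1 stood at 55.0 RPKM in YWT1 and at 31.1, 25.3 and 23.8 in YWT2 to YWT4, Gfi1b at 117, 80.8, 81.6 and 58.1, and Egr1 at 30.1, 18.2, 10.5 and 13.7. In these 3 the highest value was in YWT1, whereas Gfi1 stood at 1.85, 3.41, 4.87 and 4.38 RPKM and was lowest there.

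**Figure D2:**
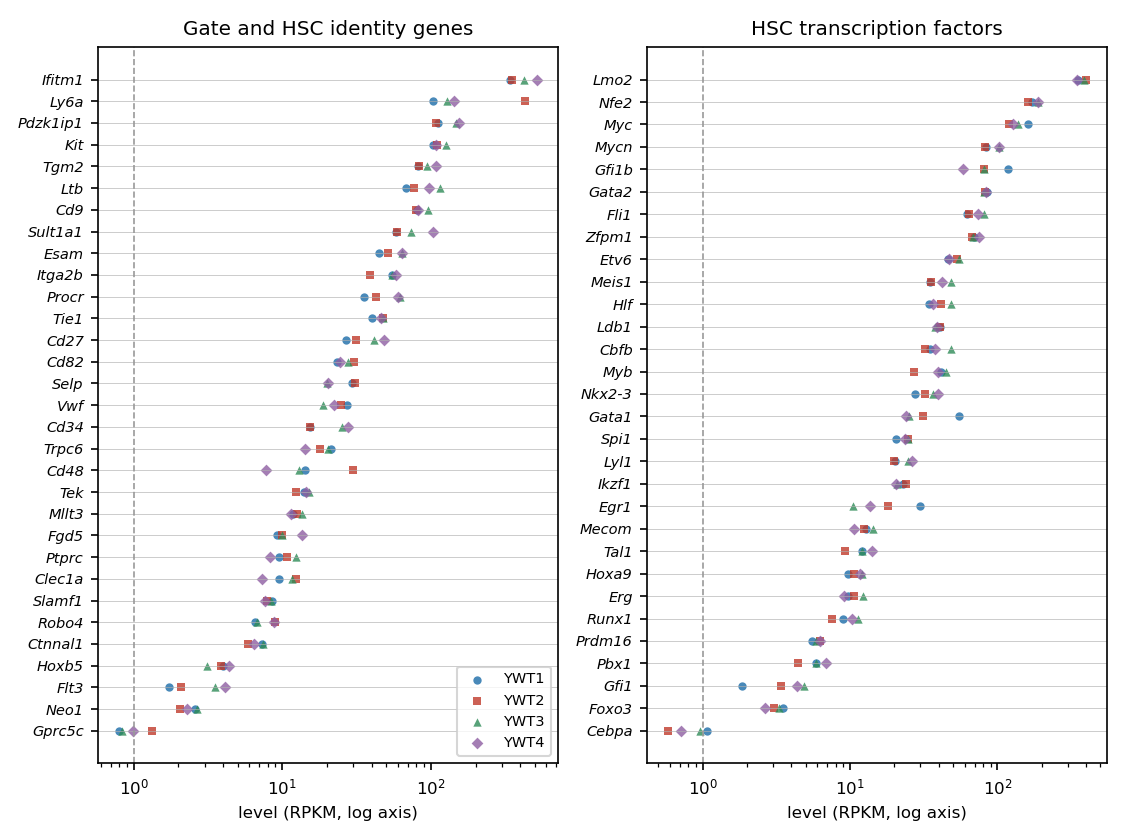
Points give the RPKM of each gene (log axis) in each library for gate genes and most identity genes on the left and transcription factors on the right, with the expression threshold of 1 RPKM as a dashed line. The points of Gata2 and Slamf1 nearly coincide, whereas YWT2 lies far to the right for Ly6a and Cd48 and YWT1 for Gata1 and Gfi1b.

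The spread between replicates depended on level. Among the 10505 genes with a mean of at least 10 CPM the median CV was 0.127, with quartiles of 0.0865 and 0.182, whereas counting alone would give a median of 0.0197. The spread of these genes was thus larger than counting error. Of them, 3502 (33.3%) had a CV under 0.1 and 308 (2.93%) had one over 0.5. The median CV was 0.711 for genes at 0.1 to 1 CPM, 0.272 at 1 to 10 CPM, 0.131 at 10 to 100 CPM, 0.117 at 100 to 1000 CPM and 0.139 for the 51 genes above. In edgeR's negative binomial model, the common biological coefficient of variation was 0.335 over 20801 genes. It was 0.297 without YWT4, and 0.341 to 0.358 without any other library. With 4 libraries the 95% interval of an SD reaches from 0.566 to 3.73 times the estimate, so single CVs are imprecise.

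**Figure D3:**
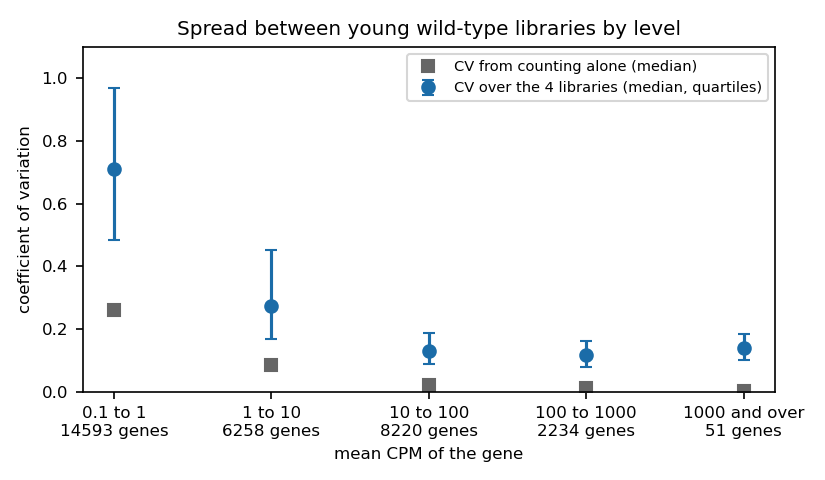
Circles show the median CV over the 4 libraries with its quartiles (bars) and squares the median CV from counting alone, by bins of the gene's mean CPM. The CV falls from 0.711 to 0.131 as the mean rises to 10 CPM and then stays near that level, above the counting value in every bin.

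The protein-coding genes with the lowest CV were chosen for it, among 9721 with a mean of at least 10 CPM. Atf7ip, a cofactor of heterochromatin formation, stood at 7.29 RPKM in YWT1, 7.31 in YWT2, 7.25 in YWT3 and 7.20 in YWT4. Its CV of 0.00655 was below the 0.0111 that counting alone gives. Por, the reductase that feeds electrons to cytochrome P450 enzymes, stood at 80.3, 78.7, 80.4 and 78.8 RPKM. Next to them were Prdm2, Gpn1, Lrrk1, Rrp7a, Sipa1, Fbxo9, Bag5, Zfp592, Mast4, Dcun1d5, Tpgs2 and Atp6v1f, with CVs of 0.00854 to 0.0137. Counting alone gives 0.0109 to 0.0248 for these genes. All of them but Sipa1, Fbxo9 and Atp6v1f also had a CV below their counting value. Among abundant genes Ifitm3, an interferon-induced membrane protein that restricts viruses, stood at 707, 688, 710 and 709 RPKM. Of common reference genes, which were not chosen by CV, Gapdh had a CV of 0.0611, Hprt 0.115 and Actb 0.134. The median over the 9721 protein-coding genes was 0.125.

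At the other end, 59 of the 9721 protein-coding genes with a mean of at least 10 CPM had a CV over 1, and 52 of them were highest in YWT2. Some passed the minimum only through the library where they were high, as Fut1 did with 53.0 CPM in YWT2 and 1.38 to 2.81 CPM elsewhere, so these counts are in part set by the filter and are given as a description. Without YWT2, 3 of 9850 genes had such a CV. Genes of antibody-secreting plasma cells were among those high in YWT2. Jchain stood at 395 RPKM in YWT1, 9118 in YWT2, 587 in YWT3 and 540 in YWT4. Sdc1, which encodes the plasma cell surface protein CD138, stood at 4.71, 114, 6.98 and 6.06 RPKM, Irf4, a factor that drives plasma cell formation, at 1.49, 25.1, 1.38 and 1.29, and Tnfrsf17, the receptor BCMA, at 2.25, 59.1, 3.54 and 3.23. Xbp1, which expands the secretory apparatus, stood at 56.9, 353, 86.9 and 104 RPKM. All 7 expressed genes of the 8 plasma cell markers were highest in YWT2, against 28.6% of all expressed protein-coding genes, and the summed level of the list was 9829 RPKM there and 470 to 702 RPKM in the others. Its part in the other results was not tested.

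The heavy and kappa chain genes of YWT2 were dominated by single V genes. Ighm, the heavy chain of IgM, had 6820969 counts in YWT2 and 365686 to 649889 in the others, and Igkc, the kappa constant region, had 5080910 against 253625 to 531948. Igkc and the V genes below were named after their values were seen. Of all heavy chain V counts, Ighv3-6 took 97.9% in YWT2, where the leading V gene took 12.1% in YWT1, 14.7% in YWT3 and 13.7% in YWT4. Of kappa V counts, Igkv12-46 took 78.3% and Igkv6-32 18.2% in YWT2, and the leading gene took 17.8% to 29.8% in the others. For the lambda chain, with 3 V genes, the leading gene took 76.0% in YWT2 and 81.3% to 93.8% in the others. Reads of near-identical V genes may be split between symbols, so single V genes are uncertain. The B cell gene Ms4a1 stood at 4.24, 8.65, 9.13 and 4.56 RPKM and was highest in YWT3, whereas Cd79a stood at 37.7, 169, 75.7 and 40.7 RPKM and was highest in YWT2. Pax5 and Ebf1, the factors that commit cells to the B lineage, were below 1 RPKM on average.

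Other transcripts of YWT2 were not antibody genes. Prg2, which encodes a granule protein of eosinophils, stood at 12.5 RPKM in YWT1, 468 in YWT2, 31.0 in YWT3 and 22.5 in YWT4, while the eosinophil gene Epx was at 0 to 0.102 RPKM in the 4 libraries. Cd74, the chaperone of MHC class II, stood at 356, 1986, 625 and 420 RPKM, whereas H2-Aa, a class II chain, was highest in YWT3 at 71.5 RPKM and stood at 58.9 in YWT2. Ly6e stood at 223, 463, 233 and 221 RPKM and Ly6c2 at 1.89, 49.2, 2.10 and 3.65. Among protein-coding genes with a mean of at least 10 CPM, the leading CV belonged to Fut1, a fucosyltransferase, at 0.494, 19, 0.987 and 1.01 RPKM. Chst1, Slamf7, Il13ra1, Spon1, Evi2a, Eaf2, St6gal1 and Bmp6 followed, each highest in YWT2 with a CV of 1.51 to 1.62.

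**Figure D4:**
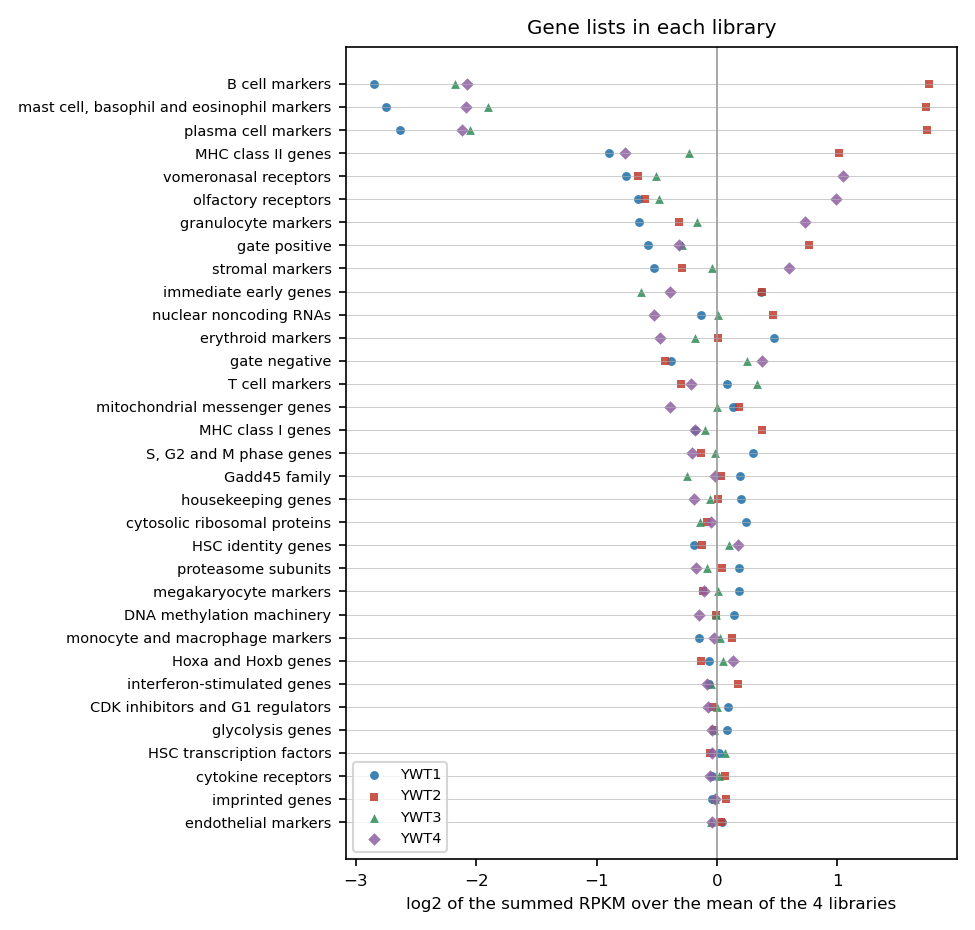
For each gene list, points give the log2 of its summed RPKM in a library over the mean of the 4 libraries. B cell, plasma cell and mast cell, basophil and eosinophil lists lie at 1.74 to 1.77 in YWT2 and between -2.85 and -1.90 elsewhere, where Ighm makes up 80651 of the 81065 RPKM of the B cell list in YWT2 and Prg2 468 of the 471 RPKM of the mast cell list, granulocyte and odorant receptor lists are highest in YWT4, and transcription factors, cytokine receptors and glycolysis genes lie near 0 in every library.

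Cell-cycle transcripts were present in every library and were highest in YWT1. All 40 genes of S, G2 and M phase were expressed, with a median of 17.7 RPKM, and 36 of them were highest in YWT1, against 30.9% of all expressed protein-coding genes. The count was 32 to 37 under the other scalings of the libraries, where 3022 to 3623 of all 10538 expressed protein-coding genes were highest in YWT1. The summed level was 1291 RPKM in YWT1, 962 in YWT2, 1038 in YWT3 and 911 in YWT4. Replication genes were the most abundant of them, with Mcm6 and Mcm3 of the replicative helicase at 125 ± 16.1 and 92.2 ± 9.52 RPKM. Of the genes of mitosis, Ccnb1, the cyclin of mitotic entry, stood at 22, 15.4, 15.6 and 9.66 RPKM, Cdk1, its kinase, at 18.5, 12.8, 13.8 and 11.5, and Top2a, the topoisomerase of dividing cells, at 24.3, 17.8, 21.5 and 14.6. Each was highest in YWT1 and lowest in YWT4. Mki67, the gene of the proliferation antigen Ki-67, stood at 11.2 ± 1.72 RPKM.

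Of the 40 cell-cycle genes, 32 had a promoter in the RefSeq set. Of these, 27 (84.4%) held the letters CCAAT on either strand in the 250 bases before the start. Among the 8512 promoters of expressed protein-coding genes, 37.4% held them. The share was not particular to cell-cycle genes: it was 87.5% for the 8 MHC class I promoters and 40.0% for the 25 proteasome promoters. The promoters of the 3 mitotic genes above are shown for this motif, which is the CCAAT box bound by NF-Y and is in capitals here (ATTGG where it lies on the other strand). They are the 120 bases before the start, on GRCm38.p6 and all on the minus strand: Ccnb1 at chr13:100786487-100786606, Top2a at chr11:99024190-99024309 and Cdk1 at chr10:69352913-69353032.
Ccnb1: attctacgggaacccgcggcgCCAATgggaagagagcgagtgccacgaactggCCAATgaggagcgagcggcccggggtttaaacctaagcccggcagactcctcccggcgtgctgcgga
Top2a: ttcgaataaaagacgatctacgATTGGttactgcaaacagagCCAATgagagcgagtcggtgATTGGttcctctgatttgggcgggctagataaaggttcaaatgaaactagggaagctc
Cdk1: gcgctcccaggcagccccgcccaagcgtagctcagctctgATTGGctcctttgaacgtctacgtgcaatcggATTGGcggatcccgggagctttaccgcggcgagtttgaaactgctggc
A match of letters is a description and does not show that the factor binds there.

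Of the regulators of G1 and quiescence, 22 of 24 were expressed, with a median CV of 0.119. That of the S, G2 and M phase genes was 0.215, and 0.125 to 0.256 with each library left out in turn, and the difference was not tested. Cdkn1c, which encodes the cell-cycle inhibitor p57 known for HSC quiescence, stood at 27.4 RPKM in YWT1, 28.2 in YWT2, 32.9 in YWT3 and 30.1 in YWT4, well above Cdkn1b (p27, 2.61 ± 0.331) and Cdkn1a (p21, 1.54 ± 0.317), though below Cdkn2d (p19, 34.7 ± 3.70). Cdkn2a and Cdkn2b were not expressed. Cdk4 led the kinases at 134 ± 13.5 RPKM, and of the D cyclins Ccnd2 was the most abundant at 49.7 ± 2.29 RPKM, above Ccnd3 at 35.2 ± 5.28 and Ccnd1 at 7.23 ± 1.08. The widest spread was in Ccne1, the cyclin of S-phase entry, at 13.0, 9.99, 6.37 and 4.73 RPKM, highest in YWT1.

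Transcripts of protein turnover and synthesis were also highest in YWT1. All 31 proteasome subunits were expressed, with a median of 64.0 RPKM and a median CV of 0.115. Of the 31, 30 were highest in YWT1, against 30.9% of all expressed protein-coding genes. The summed level of the 31 was 2524 RPKM in YWT1, 2291 in YWT2, 2108 in YWT3 and 1979 in YWT4. Ribosomal protein genes gave 81 of 86 highest in YWT1, against the same 30.9%, with a summed level of 27036 RPKM there and 20757 to 22207 RPKM elsewhere. The counts of genes highest in YWT1 were 30 to 31 and 77 to 82 under the other scalings, so the order did not turn on them. Of all 10538 expressed protein-coding genes, 3022 to 3623 were highest in YWT1 under those scalings.

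Erythroid genes were split. Klf1, the master factor of red cell genes, stood at 116 RPKM in YWT1, 58.8 in YWT2, 45.3 in YWT3 and 38.1 in YWT4, and Car1, a carbonic anhydrase of early erythroid cells, at 1200.3, 614.5, 442.9 and 300.04 RPKM. Epor, the erythropoietin receptor, stood at 33.1, 23.4, 15.9 and 13.6, and all 3 were highest in YWT1, as were Gata1 and Gfi1b above. The globins were not: Hbb-bs stood at 89.4, 135, 119 and 138 RPKM, lowest in YWT1, and Hba-a1 at 81.2 ± 16.6. The alpha and beta globin copies are near-identical, and reads may be split between them. Alas2, the heme synthesis enzyme of red cells, stood at 3.44 ± 0.738 RPKM.

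When YWT2 was left out, other genes led the list of spread, which was drawn up after the data were seen, as were the names taken from it. Thbs1, thrombospondin 1, stood at 9.48 RPKM in YWT1, 0.513 in YWT3 and 0.246 in YWT4 on the scaling of those 3 libraries. Myl10 followed Fos in that list with 108, 7.08 and 12 RPKM. Among the first 20 were Tspo2, Kel and Ermap, which belong to red cells, the Y-linked genes Kdm5d, Ddx3y, Uty and Eif2s3y, and the granule gene Ngp.

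Immediate early genes, whose transcripts rise within minutes of a stimulus or of handling, separated YWT1 and YWT2 from YWT3 and YWT4. Fos stood at 81.1 RPKM in YWT1 and 65.4 in YWT2, but at 5.14 in YWT3 and 4.78 in YWT4. Its AP-1 partner Jun stood at 117, 141, 45.8 and 51.5, Dusp1, a phosphatase that turns off MAP kinases, at 58.4, 40.1, 19.8 and 21.6, and Zfp36, a protein that destabilizes messengers, at 32.2, 37.7, 15.7 and 14.3. Of the 17 expressed genes of the list, 12 were higher in both YWT1 and YWT2 than in YWT3 and YWT4, an order that 28.0% of all expressed protein-coding genes had. The count was 11 or 13 with upper-quartile or DESeq2 scaling, and 6 with library totals alone, where 242 of all 10538 expressed protein-coding genes had this order. YWT1 and YWT2 were also the libraries with Xist reads, so sex and this order cannot be told apart. Not every gene followed it: Btg2 stood at 12, 36.6, 11.5 and 7.86 RPKM, and Socs3, an inhibitor of cytokine signalling, at 3.35, 3.33, 4.05 and 15.7, highest in YWT4. The heat shock genes Hspa1a (12.1 ± 4.60 RPKM) and Hspa1b (29.1 ± 13.1) were highest in YWT4 too, and as near-identical copies they may share reads.

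The Fos promoter is shown as that of the gene with the widest range of this list. It lies on the plus strand at chr12:85473770-85473889 on GRCm38.p6, and the capitals mark the TATA box letters TATAAA.
Fos: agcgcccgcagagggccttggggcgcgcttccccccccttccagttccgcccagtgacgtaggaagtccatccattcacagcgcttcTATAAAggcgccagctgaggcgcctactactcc
Of the promoters of expressed protein-coding genes, 1.32% had these letters on the gene's strand in the last 50 bases before the start, and among the 19 immediate early promoters 1 did.

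**Figure D5:**
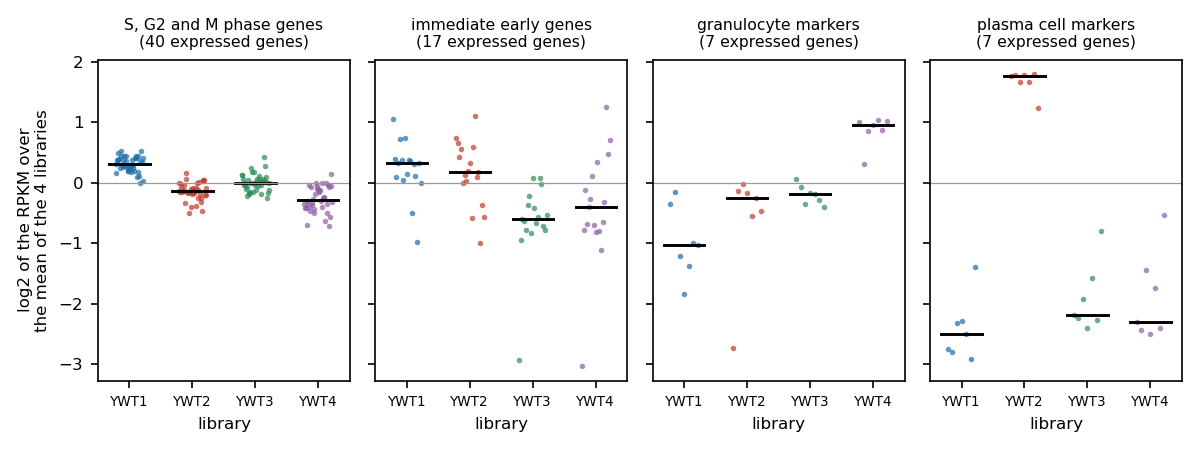
Points give, for each expressed gene of 4 lists, the log2 of its RPKM in a library over its mean in the 4 libraries, and black lines the median of the list. Division genes are highest in YWT1, immediate early genes are lower in YWT3 and YWT4, Fos most of all, granulocyte genes peak in YWT4 and plasma cell genes in YWT2.

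Granulocyte genes were low but not absent and were highest in YWT4. S100a9, a calcium-binding protein of neutrophils, stood at 23.4 RPKM in YWT1, 34.2 in YWT2, 35.8 in YWT3 and 96.4 in YWT4, the granule gene Ngp at 6.18, 19.7, 19.6 and 42.8, and Camp, the cathelicidin gene, at 4.75, 8.47, 10.9 and 25.5. Prtn3, a serine protease made from the progenitor stage on, was the most abundant of the list at 72.1, 73.5, 76.4 and 99.2 RPKM. All 7 expressed genes of the 14 were highest in YWT4 under each scaling, where 14.3% of expressed protein-coding genes were with the main scaling. Elane, the elastase of the same granules, stood at 6.09, 0.385, 8.46 and 7.40 RPKM and was lowest in YWT2. Csf3r, the G-CSF receptor, stood at 12.5, 15.3, 23.4 and 26.0. YWT4 is also the library with most low-level genes and odorant receptor reads, and whether this moves with the granulocyte reads was not tested.

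Markers of other lineages differed between lists, where 48.5% of all protein-coding genes were expressed. Of 14 T cell genes only Lck, a kinase also used outside T cells, was expressed (3.87 ± 0.809 RPKM), and Cd3d, Cd3e and Cd3g were below 1 RPKM in all 4 libraries. None of 7 stromal genes was expressed, and the 7 together summed to 0.610 to 1.32 RPKM. Of 7 endothelial genes 5 were expressed, led by Pecam1 at 8.69 ± 0.683 RPKM, while Cdh5, the defining cadherin, stood at 0.230 ± 0.119. Of 10 monocyte and macrophage genes 6 were expressed, among them Lyz2 at 305 ± 18.2 RPKM and C1qb at 23.4 ± 3.52, while Ccr2 and Fcgr1 were below 1. Of 11 megakaryocyte genes, 10 were expressed, led by Pf4, platelet factor 4, at 243 ± 63.4 RPKM. Itga2b, Vwf and Selp are among those that also count as HSC identity genes. In bulk RNA, a few cells of a type at a high level and many cells at a low level cannot be told apart.

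The Gadd45 family, stress sensors that the study is built around and that have been tied to cell-cycle arrest and DNA demethylation, was expressed at low to middling levels. Gadd45g was the most abundant, at 18.4 RPKM in YWT1, 14.0 in YWT2, 13.8 in YWT3 and 21.3 in YWT4. Gadd45a stood at 14.6, 10.2, 9.73 and 7.06, and Gadd45b at 5.27, 10.2, 4.77 and 4.88. Gadd45b was thus highest in YWT2, and its mean was 5.48 RPKM when that library was left out, against 6.27 with it.

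Genes that write, copy, read and erase DNA methylation were among the more even lists, with 14 of 15 expressed and a median CV of 0.0895. Dnmt1, the maintenance methyltransferase, stood at 46.5 RPKM in YWT1, 38.5 in YWT2, 42.7 in YWT3 and 39.4 in YWT4. Of the de novo enzymes, Dnmt3b stood at 15.8, 15.7, 16.7 and 15 and Dnmt3a at 5.04, 4.31, 4.74 and 4.59. The Tet dioxygenases were low: Tet2 stood at 1.5, 1.64, 1.65 and 1.66, Tet1 at 2.14 ± 0.273 and Tet3 at 2.45 ± 0.215. Mbd3, of the NuRD complex, was the most abundant of the list at 78.5 ± 10.9 RPKM, Uhrf1, the partner of Dnmt1, stood at 32.5 ± 5.04, and Dnmt3l was not expressed.

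Of the Hoxa and Hoxb genes, 8 of 21 were expressed. Hoxa9 stood at 9.76 RPKM in YWT1, 10.6 in YWT2, 12 in YWT3 and 11.7 in YWT4, next to Hoxa10 at 11 ± 1.08, Hoxa7 at 8.79 ± 0.970, Hoxa5 at 5.09 ± 0.498 and Hoxa6 at 2.59 ± 1.05. In the Hoxb cluster Hoxb2 stood at 4.81 ± 0.346, Hoxb5 at 3.83 ± 0.524 and Hoxb6 at 1.99 ± 0.305. Hoxb4 missed the rule at 1.24, 0.921, 1.08 and 1.30 RPKM, and Hoxa11, Hoxa13 and Hoxb8 were below 0.1 RPKM on average.

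Among imprinted genes 9 of 22 were expressed, led by Gnas at 73.2 ± 10.9 RPKM, Cdkn1c, Grb10 at 16.7 ± 1.06, Ndn at 16 ± 2.29 and Phlda2 at 10.3 ± 2.60. H19 and Igf2 were at 0.115 and 0.0445 RPKM on average. The genes of the Dlk1-Meg3 locus differed between libraries at low levels: Dlk1 stood at 0.515 RPKM in YWT1, 0.702 in YWT2, 1.41 in YWT3 and 3.09 in YWT4, and the noncoding RNAs Meg3 (0.184, 0.243, 0.632 and 1.05) and Rian (0.102, 0.131, 0.167 and 0.556) had the same order.

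Cytokine receptors were expressed for 21 of 23 genes, and their summed level was even, at 316 to 344 RPKM. The most abundant were Ifngr1 at 58.8 ± 11.6 RPKM, Tnfrsf1a at 37.4 ± 2.49 and Tnfrsf1b at 31.6 ± 3.89. Cxcr4, the receptor that holds HSCs in the marrow, stood at 7.18 RPKM in YWT1, 14.4 in YWT2, 12.9 in YWT3 and 19.7 in YWT4, lowest in YWT1. Lifr was not expressed, and Il1r1, at 0.849 in YWT1 and 1.07 to 1.26 elsewhere, missed the rule in 1 library.

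Interferon-stimulated genes summed to 1586 RPKM in YWT2 and to 1326 to 1358 RPKM in the others. Ly6e, whose levels are given above, made up 463 RPKM of the sum in YWT2. The median expressed gene of the list lay at only 0.0472 there (log2 over the mean of the 4 libraries). Of the 20 genes 19 were expressed, with a median of 10.4 RPKM and a median CV of 0.123, and Isg15 and Ifit1 stood at 11.8 ± 1.60 and 9.51 ± 0.586 RPKM. MHC class I genes were high, with a median of 156 RPKM, and 8 of the 10 were highest in YWT2, where 28.6% of expressed protein-coding genes were. With library totals alone 2 of the 10 were, as were 359 of all 10538 genes. Class II genes were all expressed as well, among them H2-Ab1 at 140 ± 42.6 RPKM and the activator Ciita at 2.33 ± 0.394. All 20 glycolysis genes with a known length were expressed, and the 21 of the list, Aldoa without an RPKM among them, had a median CV of 0.0973. Ldha, lactate dehydrogenase A, led at 448 RPKM in YWT1, 360 in YWT2, 385 in YWT3 and 377 in YWT4, ahead of Gapdh at 221 ± 13.5 and Tpi1 at 166 ± 9.74. Of the mitochondrially encoded messengers all 12 that were expressed were lowest in YWT4, as were 40.3% of expressed protein-coding genes, and 6 of the 12 were so with library totals alone, where 492 of all 10538 genes were. Among nuclear noncoding RNAs Malat1 stood at 136 ± 38.9 RPKM and Neat1 at 2.87 ± 0.329.

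Promoters of expressed protein-coding genes (8512 of 10538 had an entry) had a median of 60.0% G or C and 16 CpG in the 250 bases before the start. In 4 classes of equal size by level, the second, the third and the highest class had medians of 60.4%, 60.0% and 59.6%. In 4 such classes by CV, the letters TATAAA in the last 50 bases were found in 0.751% of the promoters of the class with the lowest CV and in 0.995% and 0.963% of those of the middle classes. The class with the lowest level, the class with the highest CV and the genes not expressed had an entry for under 80% of their genes, so for them the check is void and no value is given.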

How the data were processed

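RNA was measured in 4 YWT libraries. The authors trimmed reads with Trim Galore 0.4.3 and cutadapt, aligned them to mm10 with STAR and counted them per gene with featureCounts on GENCODE M22, and deposited raw counts; strand and mate settings are not given in the sources used here. The other 15 RNA-seq libraries and the methylation files were not used here. Here, edgeR 4.0.16 gave TMM factors and the common dispersion (intercept only, genes kept by filterByExpr), and levels are RPKM with the union exon length of GENCODE M21, so lengths may differ slightly from M22. A gene was expressed at 1 RPKM or more in all 4 libraries, and CVs were taken over genes with a mean of at least 10 CPM. The interval of an SD covers the spread between 4 libraries, and counting CVs cover counting error only. Scripts were tested on simulated data. The genes named are members of the lists, the 20 protein-coding genes with the highest mean and the 15 with the highest and the lowest CV, apart from those said to be chosen later and some that are not reported here. The members and lists were chosen with earlier results of these data known, and the CCAAT search after values were seen. Promoter sequences come from RefSeq (GRCm38.p6), with an entry for 16766 of 21740 protein-coding genes. Alternatives were other scalings (DESeq2 1.42.0, upper quartile, library total), filters and leaving out libraries. No group was compared with another.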

Additional observations from a re-analysis of the deposited data

Results flagged for a closer look

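Of 108 values tested with Dixon's ratio over the 4 libraries, 32 (29.6%) had a sample far from the others, where chance gives about 5% of values not chosen beforehand. Here that rate is no yardstick, since genes and lists were chosen with earlier results known, some for standing out, and lists and library values share genes. In 24 of them that sample was YWT2, in 7 YWT4 and in 1 YWT1. No explanation was tested.

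In YWT2 the levels that stood apart, in RPKM, were those of Jchain at 9118, Sdc1 at 114, Xbp1 at 353, Irf4 at 25.1 and Tnfrsf17 at 59.1 among plasma cell genes. The antibody genes Ighm at 80651 and Igkc at 212978 did so as well, with Cd74 at 1986, B2m at 3625, Prg2 at 468, Ly6a at 431, Ly6e at 463, Btg2 at 36.6 and Gadd45b at 10.2. Ifitm3 was flagged at 688 as the lowest of 4 close values. Summed over lists, YWT2 stood apart for gate genes at 549 RPKM, interferon-stimulated genes at 1586, MHC class I at 6881, B cell markers at 81065, plasma cell markers at 9829, mast cell, basophil and eosinophil markers at 471 and immunoglobulin genes at 646014. Ly6e made up 463 RPKM of the interferon-stimulated sum. The shares of counts in YWT2 were 28.6% on immunoglobulin genes and 38.9% on the 100 most abundant genes.

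In YWT4 the same held for S100a9 at 96.4 RPKM, Prtn3 at 99.2 and Socs3 at 15.7. Olfactory receptors summed to 126 RPKM and 415 CPM there, and vomeronasal receptors to 28.7 RPKM and 189 CPM. In YWT1 Tet2 was the lowest value, at 1.5 RPKM.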

How the results depend on the processing

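The common biological coefficient of variation (0.335) moved most with the genes and the estimator: it was 0.386 with library totals only, 0.601 with no filter on low counts, 0.279 at a mean of at least 5 CPM, 0.174 with DESeq2's gene-wise dispersions, 0.261 without YWT2 and YWT4 together, and 0.297 to 0.358 with each library left out in turn. The median CV (0.127) was 0.146 with DESeq2 size factors, 0.209 with library totals only, 0.158 at a mean of at least 1 CPM, 0.117 at 100 CPM, 0.0972 without YWT2 and YWT4 and 0.117 to 0.127 with each library left out. The count of immediate early genes higher in YWT1 and YWT2 was 12 of 17, and 6 with library totals only, a scaling that puts the median gene of YWT2 at -0.43 on the log2 scale and leaves this order in 242 of all 10538 expressed protein-coding genes, against 2950. In YWT2 it turned the sign of some list medians (log2 over the mean of the 4 libraries): from 0.24 to -0.17 for MHC class I genes, 0.18 to -0.24 for immediate early genes, 0.27 to -0.14 for mitochondrial messengers and 0.10 to -0.32 for cytokine receptors. The 59 protein-coding genes with a CV over 1 became 3 without YWT2 and up to 63 with another library left out. In TPM, which scales length-corrected levels to a common sum per library, 466 of 502 mean levels moved by at least their SD. The levels given here are thus not to be read as TPM. Without YWT2, 130 of the 502 moved. The cause of the other changes was not tested. Depth limits genes at 0.1 to 1 CPM, where counting alone gives a median CV of 0.261, but the observed median was 0.711. The source of the rest was not tested. No paired analysis was possible because only 1 group was described.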
